A study of Rattus norvegicus with 18 samples.

Results

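The 3 genes described here, Tnnt2, Tnni3 and Tpm1, encode the regulatory proteins of the cardiac thin filament. They were chosen by name and read from the deposited table by their rat Ensembl IDs, ENSRNOG00000033734 for Tnnt2, ENSRNOG00000018250 for Tnni3 and ENSRNOG00000018184 for Tpm1. All 3 are among the 30560 genes of the table, and all 3 passed the filter on low counts with 17009 genes in total. The pairing of these IDs with the symbols came with the choice of genes and could not be checked, because the reference table used here (47357 genes of assembly GRCr8) gives an Ensembl ID for 0 of them. Hearts came from male Wistar rat offspring aged 3 weeks, and their messenger RNA was sequenced in bulk. The offspring had been exposed in gestation to vehicle (7 animals), to cannabidiol at 3 mg/kg/day (CBD3, 6 animals) or to cannabidiol at 30 mg/kg/day (CBD30, 5 animals). Cannabidiol is a cannabinoid that, unlike tetrahydrocannabinol, does not intoxicate. The strain, sex, age and tissue were the same in all groups, and no genetic change is named for any of them. Litter, route and the days of dosing were not given in the sources used here. The p-values measure the spread between these animals' libraries, in which animals, library preparation and scaling cannot be told apart. They would be too small if some animals were littermates that resemble one another.

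The thin filament of a heart muscle cell is a helix of actin along which tropomyosin lies as a continuous coiled coil. Troponin sits on tropomyosin at regular intervals: troponin T (Tnnt2) anchors the complex to tropomyosin, troponin I (Tnni3) holds the filament in its inhibited state, and troponin C binds calcium and relieves that inhibition. Tpm1 encodes alpha-tropomyosin, the main tropomyosin of the rodent heart. In heart development the slow skeletal form of troponin I gives way to Tnni3, and Tnnt2 and Tpm1 transcripts are alternatively spliced. The deposited counts are per gene, so they sum the isoforms (RefSeq lists 4 transcripts for Tnnt2, 3 for Tnni3 and 28 for Tpm1). Tpm1 is also expressed outside muscle cells. RefSeq also lists a Tpm1 pseudogene, and the handling of reads shared with it was not given in the sources used here.

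The DNA just upstream of each start site is shown to place the 3 genes and the muscle elements near their starts. The transcripts varied closely together in hearts whose code ends in 1 and less so in the others. Over all hearts many other genes were more alike to each of them, and no result rests on these letters. Tnnt2 and Tnni3 are given as the 250 bases before the RefSeq start, read 5′ to 3′ on the gene's strand. For Tpm1, whose annotated gene body covers most of that window, only 30 bases around a match are given. Capitals mark matches, on either strand, to the M-CAT element (CATTCC), the GATA element (AGATAA or TGATAA) and the E-box CAGCTG. These are letters bound in muscle by TEAD, GATA and basic helix-loop-helix factors respectively.
Tnnt2, GRCr8 chr13:49818873-49819122, plus strand: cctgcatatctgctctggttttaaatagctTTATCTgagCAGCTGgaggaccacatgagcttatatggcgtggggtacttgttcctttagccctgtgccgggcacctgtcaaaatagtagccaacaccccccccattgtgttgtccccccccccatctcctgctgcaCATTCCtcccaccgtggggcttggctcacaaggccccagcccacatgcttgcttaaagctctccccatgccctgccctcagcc
Tnni3, GRCr8 chr1:78342321-78342570, plus strand: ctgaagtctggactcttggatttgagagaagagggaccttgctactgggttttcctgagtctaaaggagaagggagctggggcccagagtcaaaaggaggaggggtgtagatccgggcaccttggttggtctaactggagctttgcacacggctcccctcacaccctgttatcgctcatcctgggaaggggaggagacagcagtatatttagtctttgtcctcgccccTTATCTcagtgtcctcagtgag
Tpm1, GRCr8 chr8:76543429-76543458, minus strand: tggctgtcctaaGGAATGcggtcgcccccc

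Counted from the base before the start as -1, the Tnnt2 window held an M-CAT match at -83 to -78 and the E-box at -211 to -206. It also held a GATA match on the opposite strand at -220 to -215. The Tnni3 window held a GATA match at -22 to -17, also on the opposite strand. In the Tpm1 window an M-CAT match lay on the opposite strand at -31 to -26. None of these letters was shared by all 3 windows. Among 33465 RefSeq windows of 250 bases, 12.1% held the M-CAT letters, 16.9% the GATA letters and 12% the E-box. The MEF2 element and the CArG box, searched on both strands, were in 2.96% and 1.5% of all windows and matched in none of the 3. The TATA box (TATAAA, 12.9% of windows) matched in none of them, and the GC box (GGGCGG, 30.5% of windows) matched only in the Tpm1 window, at -102 to -97, outside the stretch shown. Another RefSeq start of Tnnt2, inside the gene, had a window without any of these matches. A match describes letters only and no binding was measured.

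The libraries held 44127009 to 89240727 counts. The labels attach an unexplained code to every column, for example 3.1. Samples are named by this code here, because 4 vehicle columns could not be tied to a replicate number. The last digit of the code was treated as a possible batch: it was 1 in 9 samples (4 vehicle, 3 CBD3, 2 CBD30) and 2 in 9 samples (3 of each group). Over all tested genes, CBD30 2.1 and vehicle 1.1 and 2.1 lay farthest out on the first principal component (65.5, -57.9 and -65.0). Mean scaled expression hardly differed between the digits. In log2 CPM (counts scaled to a common library size, then log2), the mean of samples ending in 2 minus that of samples ending in 1 was -0.012 for Tnnt2, 0.020 for Tnni3 and 0.0070 for Tpm1, and the median absolute value over all tested genes was 0.020. For scale, the median SD of log2 CPM within groups was 0.21 over the 8483 genes averaging 10 CPM or more. The sources do not say whether the authors had adjusted the counts for the digit, and this was not tested. The digit means alone therefore do not show that the digits were alike before deposit.

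All 3 genes were among the most abundant messages of the heart in every library. Tnnt2 took 0.757% to 1.17% of a library's counts, Tpm1 0.505% to 0.748% and Tnni3 0.33% to 0.544%. Together they made up 1.64% to 2.43% of the counts, with the lowest share in the vehicle sample coded 1.1 and the highest in the CBD30 sample coded 2.1. The lowest single count was 177174 (Tnni3, vehicle 1.2) and the highest 950229 (Tnnt2, CBD3 1.1). Counting error was therefore at most 0.238% of a value, below the spread between samples, in which animals, library preparation and scaling cannot be told apart. Abundant messages of Tnnt2 and Tnni3 go with heart muscle, the labelled tissue, while Tpm1 is also expressed outside muscle cells. Markers of other cell types, listed by symbol, were not analysed here, because the reference table used could not pair the IDs with symbols. In bulk tissue, fewer heart muscle cells and less RNA per cell cannot be told apart.

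Tnnt2, troponin T, had a lowest, median and highest level of 7014, 8563 and 12035 CPM in the 7 vehicle hearts, scaled by the trimmed mean of M values (TMM). The same 3 values were 7084, 10794 and 11407 CPM in the 6 CBD3 hearts. The 5 CBD30 hearts had 8834 (coded 1.1), 13360 (2.1), 10447 (1.2), 8887 (3.2) and 8411 CPM (4.2). The groups overlapped almost completely. In CBD3, 5 hearts lay between 10279 and 11407 CPM and the sample coded 3.2 stood apart at 7084 CPM. In CBD30, 4 hearts lay between 8411 and 10447 CPM and the sample coded 2.1 was above all others of the series.

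Tnni3, cardiac troponin I, had a lowest, median and highest level of 2866, 3947 and 5247 CPM in vehicle hearts. In CBD3 hearts these were 4038, 4473 and 5053 CPM. The 5 CBD30 hearts had 4310 (coded 1.1), 5846 (2.1), 5693 (1.2), 3532 (3.2) and 4951 CPM (4.2). Of these, 2 exceeded the highest vehicle heart, and the lowest of them lay below the vehicle median. Every CBD3 heart was above the vehicle median but below the highest vehicle heart.

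Tpm1, alpha-tropomyosin, had a lowest, median and highest level of 4394, 5732 and 8045 CPM in vehicle hearts. In CBD3 hearts these were 5953, 6762 and 7361 CPM. The 5 CBD30 hearts had 6055 (coded 1.1), 8572 (2.1), 7521 (1.2), 5715 (3.2) and 6868 CPM (4.2). The vehicle hearts spanned nearly the whole range of the series, and 1 CBD30 heart, coded 2.1, was above them. The CBD3 hearts were the closest together, with a coefficient of variation of 7.76% against 24.6% in vehicle and 16.6% in CBD30. For Tnni3 the coefficients were 8.27% in CBD3, 20.9% in vehicle and 19.9% in CBD30, and for Tnnt2 15.7%, 22.5% and 20.4%. Differences in spread between groups were not tested.

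**Figure D1:**
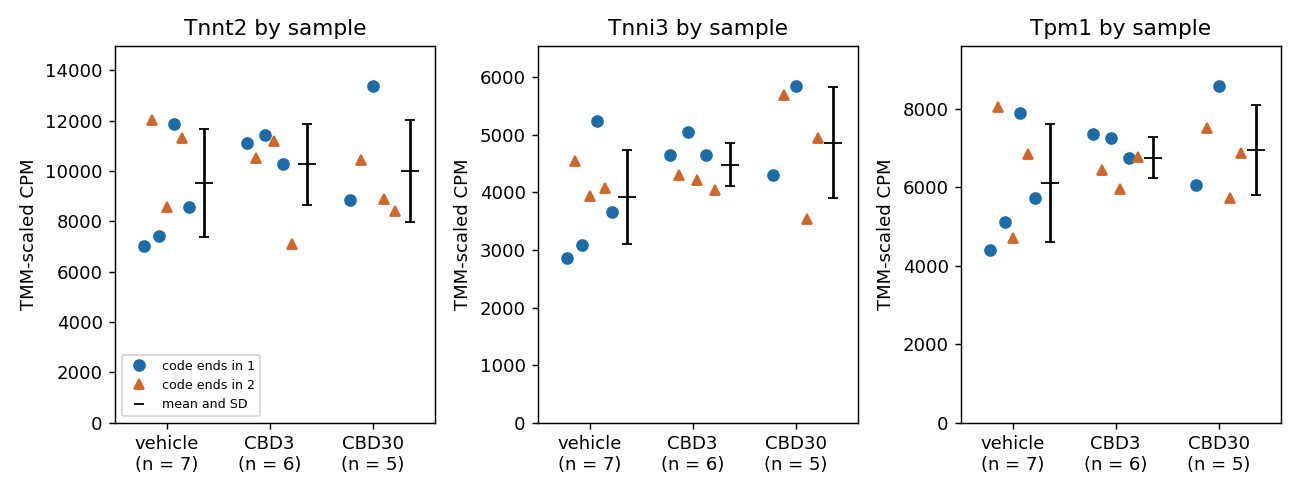
TMM-scaled CPM (vertical axes from 0) of Tnnt2, Tnni3 and Tpm1 in each of the 18 hearts by group, with blue circles for codes ending in 1, orange triangles for codes ending in 2, and the group mean with its SD in black. The groups overlap for each gene, the CBD3 heart at 7084 CPM of Tnnt2 lies apart from the other 5, and the CBD30 heart coded 2.1 is the highest of the series for all 3 genes.

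The comparison of CBD30 with vehicle asks whether exposure to the higher dose before birth came with a different level of these transcripts in the male heart. The difference was largest for Tnni3, at 4866 ± 967 CPM for CBD30 hearts (SD, n = 5) and 3920 ± 821 CPM for vehicle hearts (n = 7). Tpm1 had 6946 ± 1150 against 6101 ± 1501 CPM, and Tnnt2 9988 ± 2038 against 9533 ± 2143 CPM. None of the 3 passed the test. For 0 of the 3 did the groups not overlap, which was so for 0.629% of all tested genes.

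The log2 fold change of Tnni3 was 0.31 ± 0.15 (SE; edgeR adjusted p = 0.305 over all tested genes, 0.0502 before adjustment). As a change in level this was 24.1%, with a 95% interval from -0.0257% to 54.2%. For Tpm1 the log2 fold change was 0.19 ± 0.16 (edgeR adjusted p = 0.541), a change of 13.9% with an interval of -9.14% to 42.7%. For Tnnt2 it was 0.067 ± 0.17 (edgeR adjusted p = 0.854), a change of 4.77% with an interval of -18.1% to 34%. The intervals thus leave room for a level up to 1.54-fold for Tnni3, 1.43-fold for Tpm1 and 1.34-fold for Tnnt2, and all end below 2-fold.

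Over all 17009 genes edgeR called 0 (0%) at an adjusted p of 0.05, and 16.4% (2794 genes) had an unadjusted p under 0.05. Leaving out 1 sample at a time moved that number from 1606 (without CBD30 2.1) to 3912 (without vehicle 3.1). DESeq2 called 134 genes (0.839% of the 15967 to which it gave an adjusted p, a set that differs between comparisons) and limma voom 0. None of the 3 genes was among those of DESeq2 (adjusted p = 0.234 for Tnni3, 0.498 for Tpm1 and 0.82 for Tnnt2). In the edgeR fit 0 of the 3 genes had an unadjusted p under 0.05, and 16.5% of all tested genes had a smaller p than Tnni3. Without CBD30 replicate 2, the sample coded 2.1, the log2 fold changes were 0.24 for Tnni3, 0.10 for Tpm1 and -0.059 for Tnnt2. Without the vehicle sample coded 3.1, edgeR called 267 genes, none of them among the 3 (lowest adjusted p of any of them without a single sample 0.116, for Tnni3).

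Within the digits the CBD30 differences were not alike. Those ending in 1 (2 CBD30, 4 vehicle) had log2 fold changes of 0.37 for Tnnt2, 0.47 for Tnni3 and 0.36 for Tpm1. Those ending in 2 (3 of each) had -0.20, 0.17 and 0.036. None passed in either set (edgeR adjusted p at least 0.262 and 0.998). The difference between the sets was not detected either: it was -0.55 for Tnnt2 (edgeR interaction, adjusted p = 0.418), -0.28 for Tnni3 (0.641) and -0.30 for Tpm1 (0.624). Leaving out the 3 hearts at the ends of the first component, all of which end in 1, the log2 fold changes over both digits were -0.19 for Tnnt2, 0.10 for Tnni3 and -0.023 for Tpm1. Of these hearts, CBD30 2.1 was the highest of the series for all 3 genes. Vehicle 1.1 and 2.1 were the lowest vehicle hearts for Tnnt2 (7014 and 7410 CPM) and Tnni3 (2866 and 3088 CPM). Leaving them out therefore lowers the differences by the choice of hearts.

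The same question was put to the lower dose by comparing CBD3 with vehicle. Tnni3 stood at 4484 ± 371 CPM for CBD3 hearts (SD, n = 6) and 3920 ± 821 CPM for vehicle hearts (n = 7). Tpm1 had 6756 ± 524 against 6101 ± 1501 CPM, and Tnnt2 10258 ± 1614 against 9533 ± 2143 CPM. No CBD3 heart lay above or below all vehicle hearts for any of the 3 genes. Groups that did not overlap were seen in 0.194% of all tested genes. None of the 3 genes passed the test.

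The log2 fold change was 0.19 ± 0.14 for Tnni3 (SE; edgeR adjusted p = 0.599), which is 14.4% with a 95% interval of -6.95% to 40.6%. It was 0.15 ± 0.15 for Tpm1 (edgeR adjusted p = 0.682), or 10.7% with an interval of -10.7% to 37.3%. For Tnnt2 it was 0.11 ± 0.16 (edgeR adjusted p = 0.79), or 7.6% with an interval of -14.8% to 35.9%. Over all tested genes edgeR called 0 (0%), 8.92% (1518 genes) had an unadjusted p under 0.05, and 0 of the 3 genes did. That number was 929 without vehicle 2.1, 962 without vehicle 1.1, 992 without CBD3 3.2 and 2823 without vehicle 3.1. DESeq2 called 19 genes (0.109% of the 17363 given an adjusted p) and limma voom 0. The adjusted p of the 3 genes ran from 0.592 to 0.777 in DESeq2. For codes ending in 1 (3 CBD3, 4 vehicle) the log2 fold changes were 0.33 for Tnnt2, 0.36 for Tnni3 and 0.30 for Tpm1, and for codes ending in 2 they were -0.15, -0.0026 and -0.032 (3 of each). The interaction with the digit did not pass for any of them (edgeR adjusted p = 0.621 for Tnni3 and 0.665 for Tpm1, and 0.16 before adjustment for Tnnt2). Without the 3 samples farthest out the values were -0.029, 0.062 and 0.025. Dropping vehicle 1.1 and 2.1, the lowest vehicle hearts for Tnnt2 and Tnni3, lowers the differences by the choice of hearts.

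Between the doses the 3 genes were closest. The log2 fold change of CBD30 against CBD3 was -0.039 ± 0.18 for Tnnt2, 0.12 ± 0.16 for Tnni3 and 0.040 ± 0.16 for Tpm1 (SE; edgeR adjusted p = 0.999 for each). The 95% intervals were -24.5% to 25.6% for Tnnt2, -13.3% to 35.9% for Tnni3 and -18.6% to 29.9% for Tpm1. Over all tested genes edgeR called 0 (0%) and 1.73% had an unadjusted p under 0.05, with 0 of the 3 genes among them. The groups overlapped for all 3 genes, and did not for 0.218% of all tested genes. DESeq2 called 1 gene (0.00411% of the 24347 given an adjusted p) and limma voom 0. For codes ending in 1 the values were 0.040, 0.10 and 0.055, and in samples ending in 2 -0.053, 0.18 and 0.068, in the order Tnnt2, Tnni3, Tpm1. A sign this close to 0 carries no direction for Tnnt2 and Tpm1.

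The median log2 fold change of the 3 genes was 0.15 for CBD3 and 0.19 for CBD30 against the same 7 vehicle hearts, where the median of all tested genes was -0.020 and -0.021. Among the 66 genes averaging 1000 CPM or more, which include these 3, the median was 0.092 and 0.089, and 49 and 48 of them had a value above 0, which 46.6% and 46.8% of all tested genes had. Of the 66, in either direction, 3 (4.55%) and 7 (10.6%) had an unadjusted p under 0.05, below the shares of 8.92% and 16.4% over all tested genes. No abundant gene passed the adjusted threshold (lowest adjusted p = 0.552 for CBD3 and 0.195 for CBD30, edgeR).

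**Figure D2:**
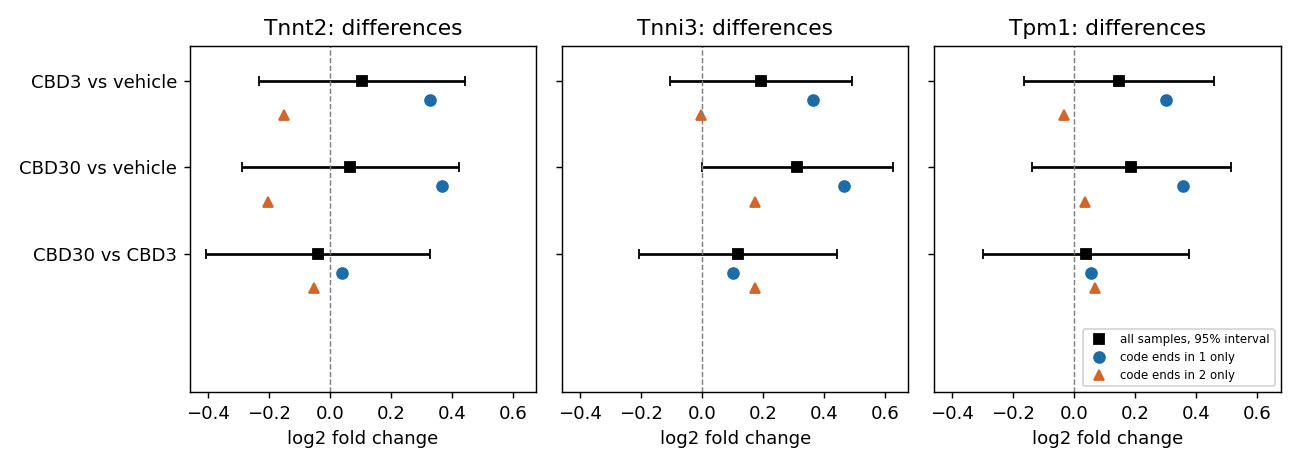
Log2 fold change (horizontal axes) of each gene in the 3 comparisons, as the estimate over all samples with its 95% interval (black squares) and as the estimates in samples whose code ends in 1 (blue circles) and in 2 (orange triangles). Every interval over all samples includes 0, and against vehicle the blue circles lie to the right of the orange triangles for all 3 genes.

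The proportions of the 3 transcripts were described by the ratio of their counts within each library, in which library scaling cancels. These ratios depend on transcript length and are compared only between samples. Tnnt2 counts were 2.43 ± 0.213 times those of Tnni3 in vehicle hearts (SD, n = 7), 2.28 ± 0.304 times in CBD3 (n = 6) and 2.08 ± 0.331 times in CBD30 hearts (n = 5). The vehicle hearts ranged from 2.17 to 2.77 and the CBD3 hearts from 1.75 to 2.66. The CBD30 hearts had 2.05 (coded 1.1), 2.29 (2.1), 1.84 (1.2), 2.52 (3.2) and 1.7 (4.2). So 3 of 5 CBD30 hearts lay below every vehicle heart and the other 2 lay inside the vehicle range. How often other pairs of genes separate as far was not computed. The hearts coded 1.2 and 4.2 end in 2, where the SD of this log2 ratio was 0.28, against 0.077 in samples ending in 1. Ratios were not tested between groups.

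Troponin T relative to tropomyosin differed less between groups. The Tnnt2/Tpm1 ratio was 1.57 ± 0.129 in vehicle, 1.53 ± 0.272 in CBD3 and 1.44 ± 0.138 in CBD30 hearts. The lowest values of the series were 1.04 in the CBD3 sample coded 3.2 and 1.23 in the CBD30 sample coded 4.2. In the CBD3 sample coded 3.2 Tnnt2 was low while Tnni3 (4038 CPM) and Tpm1 (6779 CPM) were near the others of its group. The Tnni3/Tpm1 ratio was 0.652 ± 0.0904 in vehicle, 0.665 ± 0.0432 in CBD3 and 0.698 ± 0.0521 in CBD30 hearts, with the highest value, 0.841, in the vehicle sample coded 2.2. All of these departures came from samples whose code ends in 2.

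**Figure D3:**
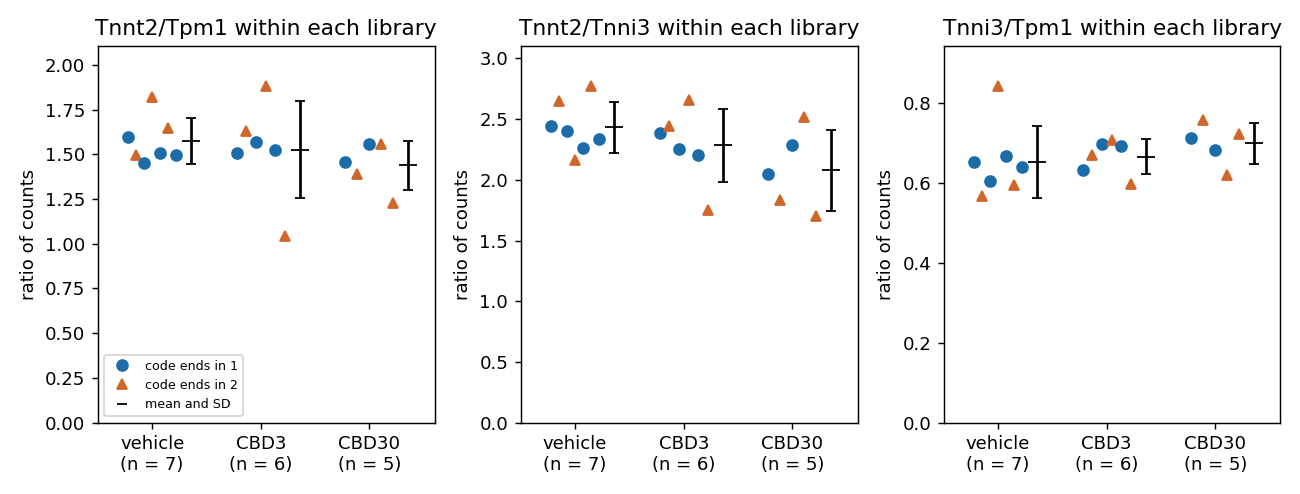
Ratios of counts within each library (vertical axes from 0) by group, with blue circles for codes ending in 1, orange triangles for codes ending in 2, and the mean with its SD in black. Blue circles lie close together in every panel (1.45 to 1.6 for Tnnt2/Tpm1), while the triangles reach from 1.04 to 1.88 for the same ratio.

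The spread of the ratios was narrower in samples whose code ends in 1. There the Tnnt2/Tpm1 ratio ran from 1.45 to 1.6, a 1.1-fold range over 9 hearts of all groups, although Tnnt2 itself varied 1.9-fold and Tpm1 1.95-fold. In the 9 samples ending in 2 the same ratio ran from 1.04 to 1.88, a 1.8-fold range (from 1.23 without the CBD3 sample coded 3.2), with Tnnt2 varying 1.7-fold and Tpm1 1.71-fold. The ranges of single genes are of TMM-scaled CPM, and the scaling factor moves both genes alike and cancels in the ratio. As shares of raw counts, Tnnt2 ran from 0.803% to 1.17% and Tpm1 from 0.505% to 0.748% in samples ending in 1. In samples ending in 2 these were 0.757% to 1.125% and 0.531% to 0.724%. As SDs of the log2 ratio of CPM these were 0.047 and 0.27 for Tnnt2/Tpm1, 0.077 and 0.28 for Tnnt2/Tnni3, and 0.076 and 0.19 for Tnni3/Tpm1. Among all 2145 pairs of the 66 abundant genes the median SD was 0.28 in samples ending in 1 and 0.29 in those ending in 2, and 54.4% of pairs had the larger SD in samples ending in 2. Of these pairs, 0.373% had a smaller SD than Tnnt2/Tpm1 in samples ending in 1. The share was 3.22% for Tnnt2/Tnni3 and 3.08% for Tnni3/Tpm1. For the SD in samples ending in 2 over that in samples ending in 1, the ratio was 5.83 for Tnnt2/Tpm1, 3.64 for Tnnt2/Tnni3 and 2.5 for Tnni3/Tpm1, and 0.28%, 1.96% and 7.74% of pairs had a larger one. The pairs share genes and libraries, so these shares are a description. The samples ending in 1 held 63672078 to 89240727 counts and those ending in 2 held 44127009 to 67302419, and the part of depth in these spreads was not tested.

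Over all 18 hearts the log2 CPM of the genes followed each other, with a Pearson r of 0.87 for Tnni3 with Tpm1, 0.76 for Tnnt2 with Tpm1 and 0.74 for Tnnt2 with Tnni3 (Spearman rho 0.87, 0.74 and 0.66). These are descriptions, since the points share library scaling and differ by group. Centred on group means r was 0.85, 0.76 and 0.78, and with library size in place of TMM scaling 0.73, 0.42 and 0.47. Among codes ending in 1 it was 0.98, 0.99 and 0.98, and leaving out the 3 hearts farthest out on the first component it was 0.93, 0.99 and 0.92 (n = 6). Among codes ending in 2 it was 0.62, 0.37 and 0.25 (rho 0.80, 0.32 and 0.25). Leaving out each heart in turn, r ran from 0.57 to 0.68, 0.17 to 0.60 and 0.18 to 0.41 among codes ending in 2 (n = 8), and from 0.970 to 0.988, 0.987 to 0.996 and 0.969 to 0.995 among codes ending in 1. The 0.60 for Tnnt2 with Tpm1 is without the CBD3 sample coded 3.2 and the 0.17 without vehicle 1.2. Leaving out the 2 hearts farthest from the first gene's median gave 0.78, 0.82 and 0.70 (n = 16).

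**Figure D4:**
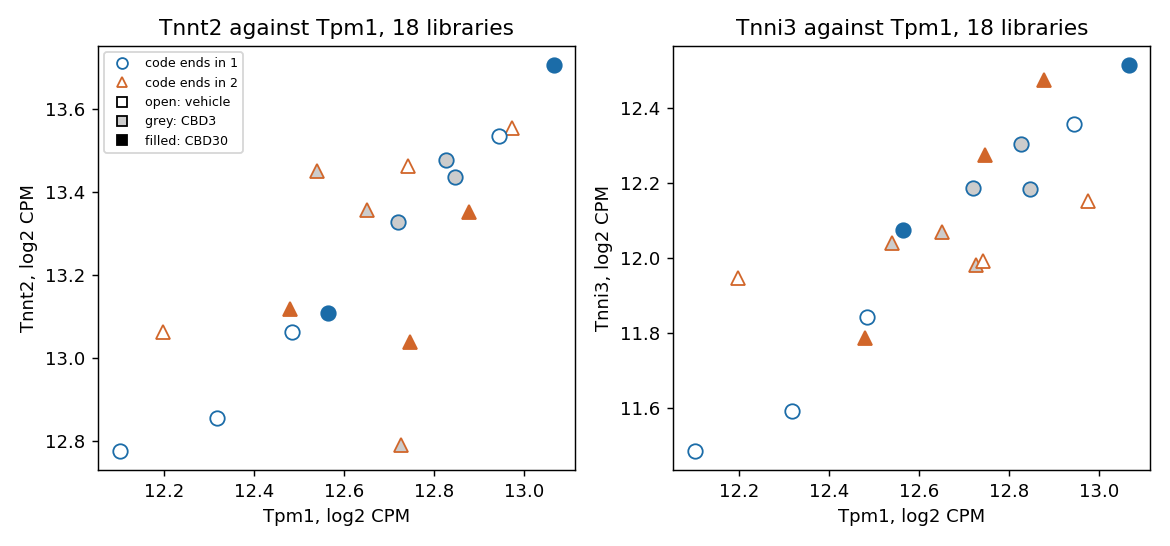
Log2 CPM of Tnnt2 (left) and Tnni3 (right) against that of Tpm1, 1 point per heart, with circles for codes ending in 1 and triangles for codes ending in 2, open for vehicle, grey for CBD3 and filled for CBD30. The circles of all groups lie near a line (r = 0.99 and 0.98), and the triangles lie farther from a line (r = 0.37 and 0.62, rho = 0.32 and 0.80).

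The 3 genes also followed the first principal component, to which they contribute among all tested genes. Their Pearson r with it was 0.71 for Tnnt2, 0.90 for Tnni3 and 0.81 for Tpm1 over 18 samples. Among 8483 genes averaging 10 CPM or more the median absolute r was 0.60, and 35.4%, 8.04% and 20.6% of genes had an r as strong. By digit, r was 0.96, 0.98 and 0.95 in samples ending in 1 and -0.076, 0.57 and 0.49 in samples ending in 2.

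Over all 18 hearts, the genes whose pattern was most alike were not the other thin filament genes described here. Likeness to other genes was not ranked within a digit. By Pearson r of log2 CPM over 18 samples among 8482 other genes averaging 10 CPM or more, the closest was ENSRNOG00000058439 for Tnnt2 (r = 0.96), ENSRNOG00000020016 for Tnni3 (r = 0.96) and ENSRNOG00000058249 for Tpm1 (r = 0.96). No symbol could be paired with these IDs. In the same order of likeness, Tpm1 stood at place 524 and Tnni3 at place 618 for Tnnt2. For Tnni3, Tpm1 stood at place 488 and Tnnt2 at place 1602, and for Tpm1, Tnni3 stood at place 289 and Tnnt2 at place 1170. The 3 genes varied within groups about as much as other abundant genes. Their SD of log2 CPM was 0.29 for Tnnt2, 0.26 for Tnni3 and 0.26 for Tpm1, against a median of 0.26 over the 66 genes with at least 1000 CPM and 0.21 over the 8483 genes.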

How the data were processed

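Messenger RNA of 18 rat hearts was sequenced after stranded library preparation, per the labels' protocols. The values deposited by the authors are whole-number counts per gene and sample, and whether they had been adjusted before deposit was not given. Tools and build, per the submitters' processing notes, include featureCounts, edgeR and mRatBN7.2; the aligner, annotation release and counting options were not given in the sources used here. Genes were filtered with filterByExpr (minimum count 10, minimum total 15). After TMM scaling, the 3 groups entered a joint quasi-likelihood fit in edgeR 4.0.16 (R 4.3.3), with Benjamini-Hochberg adjustment over all tested genes and a threshold of 0.05. SEs came from the F statistic, intervals are at 95%, with a prior count of 2 for log2 CPM. Alternatives used other scaling, filters, samples and covariates, DESeq2 1.42.0 and limma 3.58.1. The pipeline was run on simulated data with changes larger than those estimated here for the 3 genes. The outcome is not given here, and it does not measure how well changes as small as these are found. Of 46 pairs of libraries within groups none agreed within sampling noise (lowest chi-square per degree of freedom 36.8). The genes and lists were chosen with earlier results of these data known. The text names the 3 genes and, for each, the gene with the highest correlation. Lists of other sarcomere genes, transcription factors and cell type markers, set by symbol, were not analysed, because 0 IDs could be paired with a symbol. Promoter sequences are from RefSeq (GRCr8), matched by symbol for 3 of 3 genes.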

Additional observations from a re-analysis of the deposited data

Results flagged for a closer look

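In 18 sets of 5 to 7 samples (3 genes and 3 ratios in 3 groups), 2 held a sample far from the others, where chance gives about 1 in 20. The Tnnt2 level of the CBD3 sample coded 3.2 was 7084 CPM, and the nearest other CBD3 heart had 10279 CPM. The Tnni3/Tpm1 count ratio of the vehicle sample coded 2.2 was 0.841, and the nearest other vehicle heart had 0.666. Without the CBD3 sample coded 3.2 (replicate 6) the log2 fold change of Tnnt2 for CBD3 against vehicle was 0.19, compared with 0.11 with it.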

How the results depend on the processing

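None of the 3 genes passed an adjusted p of 0.05 in any comparison under any alternative run. For Tnni3 against vehicle at CBD30 the adjusted p ranged from 0.116 to 0.998, and 8 of 31 alternatives had an unadjusted p under 0.05. The fit without the 3 samples farthest out and the unblocked fit of numbered columns were added after seeing the data. So were the numbers of genes with an unadjusted p under 0.05 and the correlations without those 3 samples or each heart of a digit. For the results below the cause was not tested, including litter, depth and an adjustment before deposit.

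Log2 fold changes reversed in some alternatives for each gene. For Tnni3 this was 1 of 31 for CBD3 and 0 of 31 for CBD30 (0.078 to 0.47) against vehicle, and 0 between doses. In samples ending in 2, CBD3 against vehicle was -0.15 for Tnnt2, -0.0026 for Tnni3 and -0.032 for Tpm1, and CBD30 against vehicle was -0.20 for Tnnt2. In samples ending in 1, CBD30 against CBD3 was 0.040 for Tnnt2. Without the 3 samples farthest out, Tnnt2 was -0.029 for CBD3 and -0.19 for CBD30, and Tpm1 was -0.023 for CBD30 and -0.047 between doses.

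Whether the replicate numbers pair the samples could not be decided, because the same-numbered pairs are few and 4 vehicle columns have no number. Same-numbered pairs correlated at -0.163, -0.196 and -0.035 with a vehicle sample and -0.077 to 0.308 between doses (2 of 8 over 0.1). Of 5 pairs between doses, 3 CBD3 and 2 CBD30 samples correlated best with their own number. With the replicate block, fitted on 14 numbered columns, Tnnt2 was -0.24 for CBD3 and -0.38 for CBD30 against vehicle, Tnni3 0.012 and 0.078, and Tpm1 0.049 and 0.027. Between doses Tpm1 was -0.022, Tnni3 0.066 and Tnnt2 -0.14, and 0 genes were called in each comparison. Unblocked, these columns gave -0.040 and -0.078 against vehicle (Tnnt2), 0.11 and 0.23 (Tnni3), and 0.060 and 0.10 (Tpm1).

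Leaving out each sample gave log2 fold changes for CBD3 against vehicle of 0.043 to 0.19 (Tnnt2), 0.13 to 0.28 (Tnni3) and 0.081 to 0.23 (Tpm1). For CBD30 against vehicle they were -0.059 to 0.13, 0.24 to 0.41 and 0.10 to 0.27, and between doses -0.17 to 0.018, 0.044 to 0.21 and -0.047 to 0.10. The Tnnt2 sign for CBD30 against vehicle and the Tpm1 sign between doses turned without CBD30 replicate 2, and Tnnt2 between doses turned without CBD30 replicates 1, 4 or 5 (0.0026, 0.0011 and 0.018). Genes called were 0 for CBD3, 0 to 267 for CBD30 (267 without vehicle 3.1, 1 without CBD30 replicate 1) and 0 between doses. DESeq2 called 19, 134 and 1, and edgeR on only the groups compared called 1 between doses.

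Correlations moved in samples ending in 1 (0.98, 0.99 and 0.98 for Tnnt2 with Tnni3, Tnnt2 with Tpm1 and Tnni3 with Tpm1) and ending in 2 (0.25, 0.37 and 0.62). Tnnt2 with Tpm1 was 0.42 with library size only. In samples ending in 1 without the 3 farthest out, Tnnt2 with Tnni3 was 0.92 and with Tpm1 0.99. Leaving out each heart within a digit, r over both digits ran 0.177 to 0.995 (Tnnt2 with Tnni3), 0.173 to 0.996 (Tnnt2 with Tpm1) and 0.571 to 0.988 (Tnni3 with Tpm1).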
